A study of Mus musculus with 28 samples.

Results

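C cell and neuroendocrine genes of the mouse thyroid were followed by name. The set held 10 genes out of 47643 gene rows: Calca, Calcb, Scg2, Scg3, Chgb, Nnat, Pcsk1, Pcsk2, Ret and Gfra4, each found through its Ensembl identifier in all 28 libraries. The libraries come from mice carrying an H2B-GFP histone label, which dividing cells dilute and slowly dividing cells keep, with glands sorted into GFP+ and GFP− cells straight after collection. Thyroid was sampled at 3, 6 and 9 months of age, with 4, 4 and 3 libraries per fraction. Salivary gland was sampled at 9 months, with 3 libraries per fraction. All groups share the H2B-GFP background. The promoter driving the label, its induction, the sex of the mice and the number of animals per library are not given in the sources used here. Whether replicates are different mice is not labelled, and the p-values reflect how far these libraries scatter, which may be technical.

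C cells are the calcitonin-producing neuroendocrine cells that lie among the follicles of the thyroid. They cut peptide hormones out of larger precursors with prohormone convertases, store them with granins in dense-core granules and release them when blood calcium rises. RET, a receptor tyrosine kinase, works with glycolipid-anchored coreceptors of the GFRA family, and activating RET mutations cause medullary thyroid carcinoma, the tumour of C cells.

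Reads in genes ran from 507 to 195513 per GFP+ thyroid library and from 4845 to 209091 per GFP− thyroid library. Fewer than 10000 reads were present in 3 of 11 GFP+ and 2 of 11 GFP− thyroid libraries and in 1 of 6 salivary libraries. In the shallowest library, GFP+ replicate 4 at 6 months, 1 read equals 1972 CPM (a gene's reads per 1000000 reads in genes of the same library). Group levels are therefore given from summed reads, with exact 95% Poisson intervals that cover counting error only. The 10 genes together held 3199 reads, and 4 libraries had none of them. In bulk libraries, fewer cells of a type and less RNA per cell cannot be told apart.

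Of the 10 genes, 8 had promoter windows in the RefSeq table (build GRCm38.p6). The windows of 4 of them are shown because they cover 3 genes with far fewer reads in GFP+ thyroid cells (Calca, Scg2 and Pcsk2) and a granin gene with a ratio nearer 1 (Scg3). Each gives the 120 bases before the annotated start, 5′ to 3′ on the gene's strand: Calca at chr7:114636358-114636477 on the minus strand, Scg2 at chr1:79440027-79440146 on the minus strand, Scg3 at chr9:75684057-75684176 on the minus strand and Pcsk2 at chr2:143546013-143546132 on the plus strand. Capitals mark the cyclic AMP response element TGACGTCA and its core TGACG, which reads CGTCA where it lies on the other strand. In Scg2 they also mark CTGTCC. That stretch reads GGACAG on the other strand and is part of the element bound by the repressor REST.
Calca: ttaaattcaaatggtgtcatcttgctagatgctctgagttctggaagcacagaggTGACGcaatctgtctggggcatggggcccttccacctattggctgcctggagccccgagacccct
Scg2: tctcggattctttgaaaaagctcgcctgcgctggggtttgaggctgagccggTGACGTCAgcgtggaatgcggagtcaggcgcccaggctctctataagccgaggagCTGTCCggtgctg
Scg3: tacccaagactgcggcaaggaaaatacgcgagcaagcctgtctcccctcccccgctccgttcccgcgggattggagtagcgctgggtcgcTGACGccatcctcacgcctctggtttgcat
Pcsk2: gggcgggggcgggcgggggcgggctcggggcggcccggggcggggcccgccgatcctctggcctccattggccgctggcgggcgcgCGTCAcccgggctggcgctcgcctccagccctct
Motifs were searched on both strands of the 250 bases before each start. The full element TGACGTCA was in the windows of 3 of the 8 genes, Scg2, Chgb and Pcsk1, and in 1.55% of all 32851 promoters. The core TGACG, which every full element also contains, was in 6 of the 8 (Calca, Scg2, Scg3, Chgb, Pcsk1 and Pcsk2) and in 17.8% of all promoters. The E-box CAGCTG was in windows of Pcsk2 and Gfra4 (13.0% of all promoters), GGACAG in Scg2 and Gfra4 (18.7%) and the forkhead motif TGTTTAC in Pcsk1 (3.17%). TTCAGCACC, the other portion of the REST element, was in 0 of the 8 and in 0.301% of all promoters. These matches describe the letters and are not shown to be bound sites, and the core stood in the windows of Calca, Scg2, Pcsk2 and Scg3 alike. The window of Nnat, which also had far fewer reads in GFP+ cells, held none of these motifs and is not shown.

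The main comparison set GFP+ against GFP− thyroid cells. GFP+ cells had far fewer reads of the hormone gene Calca, the granin gene Scg2 and Nnat at every age, and of the convertase genes Pcsk1 and Pcsk2 over all ages. Scg3 had a ratio nearer 1, and Ret had more reads in GFP+ than in GFP− libraries. Over 22 thyroid libraries, edgeR's quasi-likelihood test took up 3 of the 10 genes (Calca, Scg2 and Nnat), since the other 7 had too few reads for the filter on low counts. All 3 were called lower in GFP+ cells as the mean over ages, where 8.79% of the 1900 genes tested were called lower. A gene with reads mainly in 1 fraction passes the filter through that fraction, so the 3 do not stand for all 10. Scaling by DESeq2 size factors moved the median change of all genes to 0.22, against −0.08 with TMM, and 70.7% of all calls were then higher, against 56.4% with TMM.

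Calca encodes the precursor of calcitonin and, by alternative splicing, of the neuropeptide CGRP, and gene counts do not separate the products. GFP+ libraries had 0, 0, 53.7 and 62.9 CPM at 3 months, against 1555, 2091, 966 and 2115 CPM in GFP− libraries. At 6 months GFP+ libraries had 35.3, 91.7, 128 and 1972 CPM, against 2648, 619, 2554 and 2616 CPM in GFP− libraries. At 9 months GFP+ libraries had 15.4, 194 and 209 CPM, against 509.9, 2428 and 3064 CPM in GFP− libraries. The groups did not overlap at 3 and 9 months, and at 6 months they overlapped through the GFP+ value of 1972 CPM, which is 1 read. How many of all genes separate in this way within an age was not counted. The 2 lowest GFP− values, 509.9 and 619 CPM, were 3 reads each in libraries under 10000 reads. Over all ages Calca had 100 reads in GFP+ and 2321 in GFP− libraries, a ratio of levels of 0.0485 (95% counting interval 0.0393 to 0.0593). The fitted log2 fold change was −4.65 ± 0.54 (SE, n = 11 per fraction, edgeR adjusted p = 9.31e-16). Calcb, a close relative beside it that encodes the other CGRP, had 0 reads in all 28 libraries. How reads that match both genes were counted is not given in the sources used here, so the split between them is uncertain.

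Scg2 encodes secretogranin II, a granin that is a granule protein and a peptide precursor. GFP+ libraries had 0 CPM in all 4 at 3 months, against 204, 263, 71.5 and 218 CPM in GFP− libraries. At 6 months GFP+ libraries had 23.5, 0, 10.2 and 0 CPM, against 335, 0, 182 and 260 CPM in GFP− libraries. At 9 months GFP+ libraries had 0, 23.5 and 11.6 CPM, against 0, 392 and 399 CPM in GFP− libraries. Both GFP− libraries at 0 held fewer than 10000 reads, and every other GFP− library stood above every GFP+ library. The summed reads were 9 in GFP+ and 263 in GFP− libraries, a ratio of 0.0385. The mean fitted change, −5.35 (edgeR adjusted p = 3.61e-17), includes the 3-month group without reads and so depends on the prior count of the fit.

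Nnat encodes neuronatin, a small imprinted proteolipid of the endoplasmic reticulum found in neurons and endocrine cells. GFP+ libraries had 640.2, 0, 0 and 11.4 CPM at 3 months, against 118, 251, 501 and 397 CPM in GFP− libraries. At 6 months GFP+ libraries had 0 CPM in all 4, against 402, 206, 282 and 347 CPM in GFP− libraries. At 9 months GFP+ libraries had 15.4, 23.5 and 69.8 CPM, against 509.9, 332 and 284 CPM in GFP− libraries. At 3 months the groups overlapped through the GFP+ value of 640.2 CPM, again 1 read in a shallow library. Over all ages Nnat reached 15.9 CPM in the GFP+ fraction, against 295.8 CPM in the GFP− fraction, a ratio of 0.0538 (mean fitted log2 change −5.17, edgeR adjusted p = 4.68e-17, with a 6-month group without reads). Without GFP+ replicate 3 at 9 months the ratio was 0.0341. Nnat lies within the gene Blcap, and whether the counting used the strand is not given in the sources used here, so reads of the pair may not be separated.

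Among the 8 GFP+ and 9 GFP− thyroid libraries of at least 10000 reads, these 3 genes showed no overlap between fractions. The highest GFP+ value of Calca was 209 CPM and the lowest GFP− value 966 CPM. For Scg2 these were 23.5 CPM in GFP+ and 71.5 CPM in GFP−, and for Nnat 69.8 CPM in GFP+ and 118 CPM in GFP−. Of all 1900 genes tested, 1.05% had this pattern with GFP+ lower. The remaining members overlapped between fractions or had 0 reads.

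**Figure D1:**
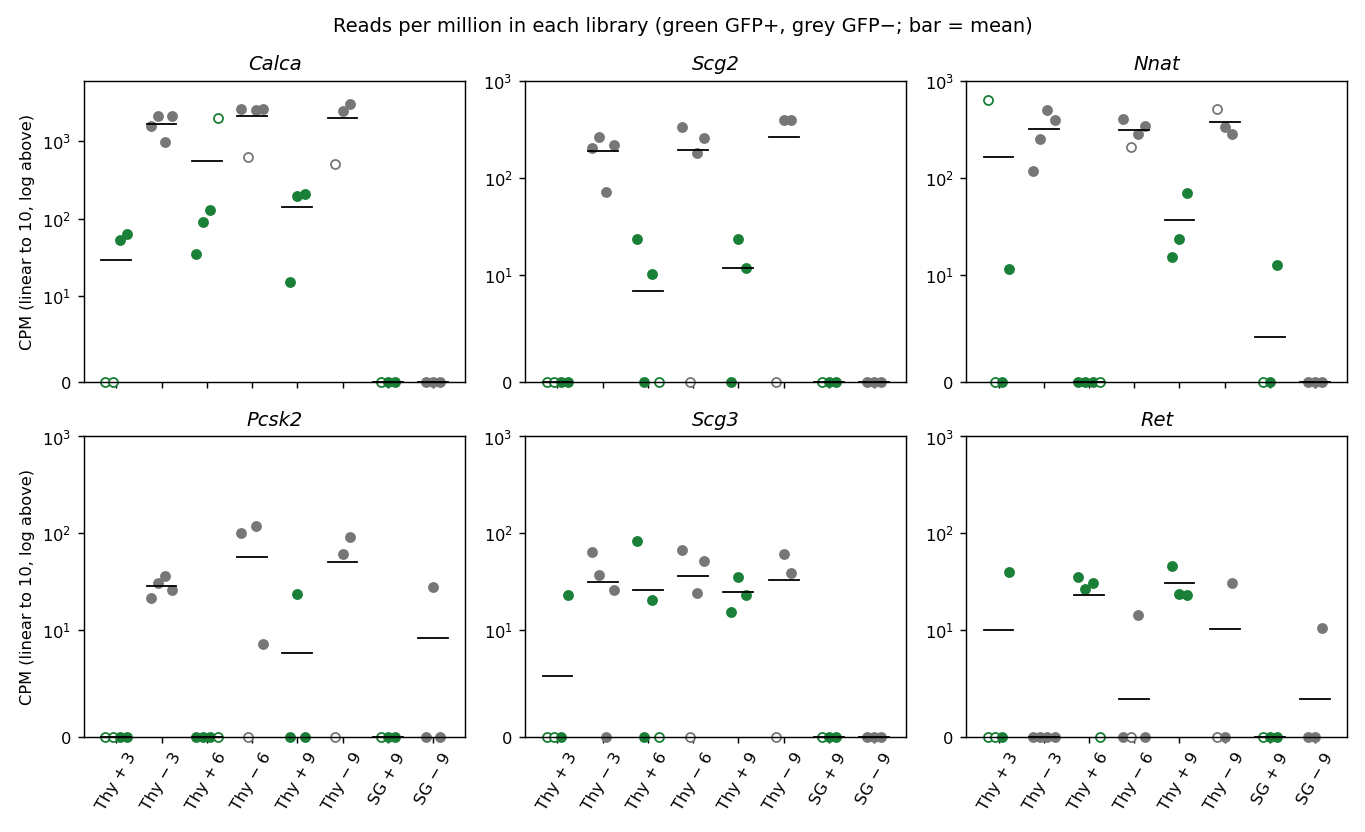
CPM of 6 genes in each library of the 8 groups (Thy, thyroid; SG, salivary gland; + and − for GFP; months), with GFP+ in green, GFP− in grey, open symbols for libraries under 10000 reads, and bars for group means. The vertical axis is linear to 10 CPM and logarithmic above; Calca, Scg2 and Nnat sit low in filled GFP+ symbols and high in filled GFP− symbols, while Scg3 overlaps and Ret is mostly at 0 in GFP− libraries.

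The prohormone convertases had few reads. Pcsk2, which encodes PC2, had 4 reads in GFP+ libraries, all in replicate 2 at 9 months (23.5 CPM), against 59 reads in GFP− libraries, where 9 of 11 libraries had reads and the range was 0 to 119.6 CPM with a median of 30.6 CPM. The ratio was 0.0763 (95% counting interval 0.0201 to 0.206). GFP− replicate 3 at 6 months held 25 of the 29 reads of its group, and without that library the ratio over all ages was 0.105. Pcsk1, which encodes PC1/3, had 1 read in GFP+ libraries and 14 reads in GFP− libraries, a ratio of 0.0804 (0.00190 to 0.529). With no filter on low counts, an alternative fit of 16525 genes, where 1.08% of genes were called lower, Pcsk2 was called lower (log2 fold change −4.13, edgeR adjusted p = 0.000165) and Pcsk1 also (−2.98, adjusted p = 0.0406).

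Of the other granin genes, Scg3 was detected in both fractions. Scg3 encodes secretogranin III, which binds chromogranin A and helps load granules. Its GFP+ libraries had 0, 0, 0 and 22.9 CPM at 3 months, against 64.3, 36.7, 0 and 25.6 CPM in GFP− libraries. At 6 months GFP+ libraries had 82.3, 0, 20.5 and 0 CPM, against 67.0, 0, 23.9 and 52.0 CPM in GFP− libraries. At 9 months GFP+ libraries had 15.4, 35.2 and 23.3 CPM, against 0, 60.3 and 38.4 CPM in GFP− libraries. The fractions overlapped at each age, at 9 months only through the GFP− value of 0 CPM, from a library under 10000 reads. Among 9-month libraries of at least 10000 reads, the highest GFP+ value was 35.2 CPM and the lowest GFP− value 38.4 CPM. Summed over ages, Scg3 had 24 reads in GFP+ and 40 in GFP− libraries, a ratio of 0.676 with a counting interval of 0.390 to 1.15. With no filter its log2 fold change was −0.83 ± 0.59 (SE, edgeR adjusted p = 0.790), a change that did not pass and does not show equal levels. Chgb, the chromogranin B gene, had 2 reads in GFP+ and 4 in GFP− libraries, at most 11.8 CPM in a GFP+ and 9.57 CPM in a GFP− library, too few for a comparison.

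The receptor gene Ret was detected in more GFP+ than GFP− libraries. GFP+ libraries had 0, 0, 0 and 40.01 CPM at 3 months, against 0 CPM in all 4 GFP− libraries. At 6 months GFP+ libraries had 35.3, 26.2, 30.7 and 0 CPM, against 0, 0, 14.3 and 0 CPM in GFP− libraries. At 9 months GFP+ libraries had 46.1, 23.5 and 23.3 CPM, against 0, 0 and 30.7 CPM in GFP− libraries. Reads were present in 7 of 11 GFP+ and in 2 of 11 GFP− libraries. The 27 GFP+ and 7 GFP− reads gave a ratio of 4.34 (95% counting interval 1.85 to 11.8), and 8.80 without GFP− replicate 3 at 9 months, which held 4 of the 7. With no filter the log2 fold change was 2.14 ± 0.72 (SE), which did not pass (edgeR adjusted p = 0.0877). Markers of Schwann cells and nerve had a summed level of 88.7 CPM in GFP+ libraries, against 46.4 CPM in GFP−. Of these 8 genes, 7 had reads in GFP+ and 6 in GFP− libraries, with Prph at 0 in both and Sox10 at 0 in GFP−. Over libraries that sum ran from 0 to 183 CPM in GFP+ and from 0 to 170 CPM in GFP− libraries, and its part in the Ret values was not tested. Gfra4, a RET coreceptor for persephin known from C cells, had 3 reads in GFP+ libraries (at most 15.3 CPM) and 10 in GFP− libraries (at most 33.5 CPM), a ratio of 0.338 with an interval of 0.0597 to 1.31, and 0.666 without GFP− replicate 3 at 6 months, which held 6 of the 10.

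**Figure D2:**
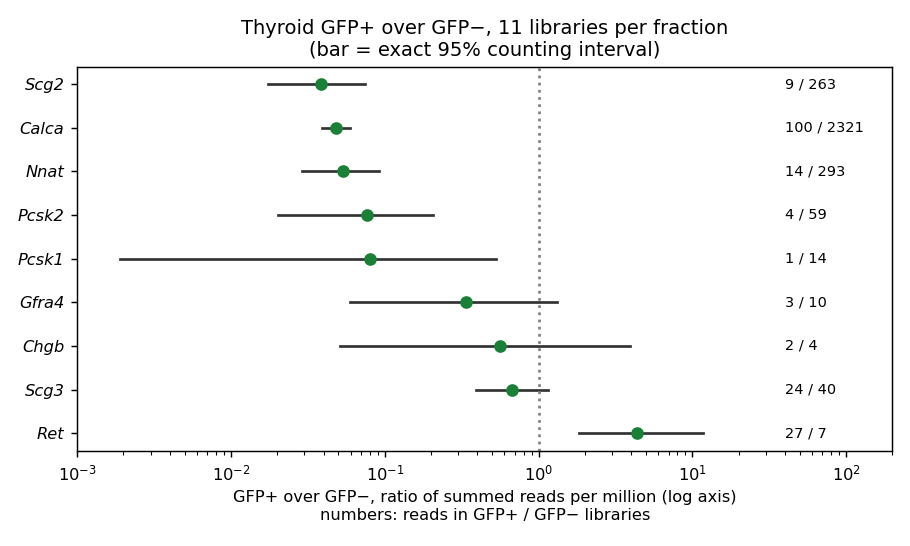
Ratio of CPM from summed reads in thyroid GFP+ over GFP− libraries (log axis) for the 9 genes with reads, with exact 95% counting intervals and the read numbers at the right. Calca, Scg2, Nnat, Pcsk2 and Pcsk1 lie below 1 with their whole interval, Gfra4, Chgb and Scg3 have intervals that include 1, and Ret lies above 1.

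As a share of the reads of the 10 genes, the fractions had a different make-up. Calca made up 54.3% of 184 reads in GFP+ and 77.1% of 3011 reads in GFP− libraries (exact 95% binomial intervals 46.9 to 61.7% in GFP+ and 75.5 to 78.6% in GFP−). These intervals cover counting error only and leave out the spread between libraries. In GFP+ cells at 6 months, for example, Calca made up 18.75% of 16 reads in replicate 1 and 70% of 10 reads in replicate 2. Scg3 made up 13.0% in GFP+ and 1.33% in GFP− libraries, and Ret 14.7% in GFP+ and 0.232% in GFP− libraries. The shares of Scg2 were 4.89% in GFP+ and 8.73% in GFP− libraries, those of Nnat 7.61% in GFP+ and 9.73% in GFP−, and those of Pcsk2 2.17% in GFP+ and 1.96% in GFP−. Libraries with at least 10 Calca reads, 4 GFP+ and 9 GFP−, were set side by side. Scg3 had 11.1 to 36.4 reads per 100 Calca reads in these GFP+ libraries and 0 to 4.14 in these GFP− libraries. Ret had 11.1 to 63.6 in GFP+ and 0 to 1.003 in GFP− libraries, and Scg2 0 to 12.1 in GFP+ and 7.12 to 16.1 in GFP− libraries. Per Calca read, the ranges thus did not overlap for Scg3 and Ret and overlapped for Scg2. Calca itself is the divisor and was far lower in GFP+ libraries, so any gene lowered less than Calca rises by this division. How many of all genes have such ranges was not counted, so they are no trait of Scg3 and Ret. These shares carry no test. They count 3′ reads, not transcripts per length.

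**Figure D3:**
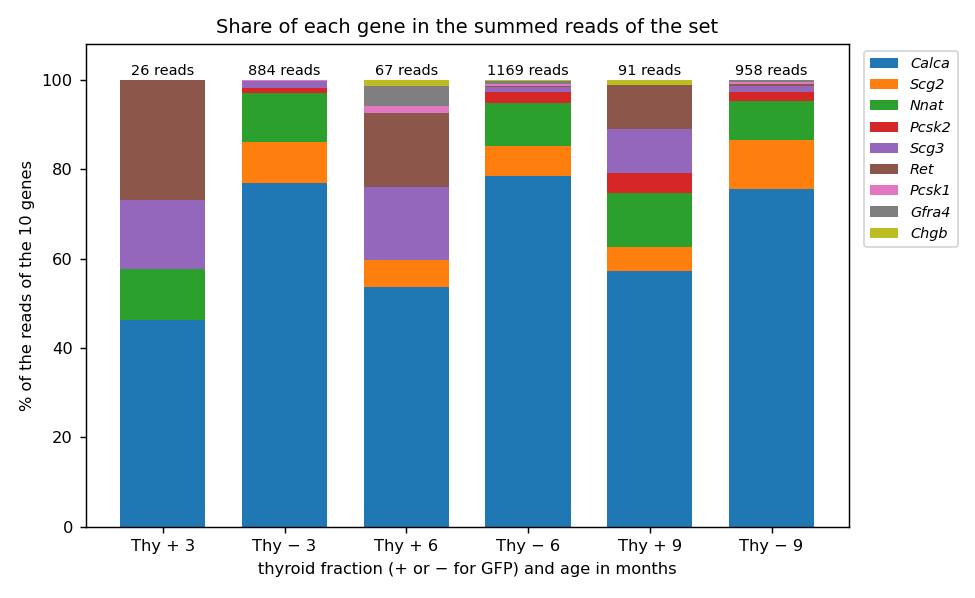
Percentage of the summed reads of the 10 genes that each gene held in the 6 thyroid groups (+ and − for GFP, ages in months), with the number of reads above each bar. Scg3 and Ret take visible shares in the GFP+ bars and thin ones in the GFP− bars, where Calca takes 76.8, 78.5 and 75.6% at 3, 6 and 9 months.

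The sort was then taken at each age. Calca, Scg2 and Nnat were called lower in GFP+ cells at 3, 6 and 9 months, 3 of 3 each time. Of the 1900 genes, 4.74%, 1.84% and 1.63% were called lower at these ages. Scg2 and Nnat passed the filter on low counts through GFP− libraries, where they were high. The counts of 3 are therefore no support beyond the values, and do not stand for the whole set. For Calca, the GFP+ level from summed reads was 59.7 CPM at 3 months, against 1872 CPM in GFP− cells. At 6 months it was 101 CPM in GFP+ against 2556 CPM in GFP− cells, and at 9 months 162 CPM in GFP+ against 2694 CPM in GFP− cells. Its fitted log2 fold changes were −5.34, −4.69 and −3.93 (edgeR adjusted p = 1.44e-05, 1.88e-05 and 0.00199), and without GFP+ replicate 4 the 3-month value was −6.41. For Scg2 at 3 months, 0 reads in GFP+ against 81 in GFP− libraries put GFP+ cells at least 14.96-fold lower against a limit of 3 reads over the group (edgeR adjusted p = 4.18e-05). That bound falls to 1.94-fold without GFP+ replicate 4, which held 174957 of the 201054 reads of its group. Scg2 changes at 6 and 9 months were −4.37 and −4.48 (edgeR adjusted p = 3.26e-05 and 3.23e-05), the second at −5.43 without GFP+ replicate 2. Nnat was at −4.43 at 3 months (edgeR adjusted p = 0.000586) and −3.18 at 9 months (adjusted p = 0.00417). Its 3-month value was −5.05 without GFP+ replicate 1 and −3.82 without GFP+ replicate 4, and its 9-month value −3.85 without GFP+ replicate 3. At 6 months Nnat had 0 reads in GFP+ and 112 in GFP− libraries, at least 37.1-fold lower (edgeR adjusted p = 1.19e-08), or 16.8-fold without GFP+ replicate 3.

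At 9 months each fraction had 3 libraries, and several calls depended on single libraries. Calca lost its call without any one of GFP+ replicates 1, 2 and 3 (adjusted p = 0.299, 0.130 and 0.0561, edgeR) or GFP− replicates 2 and 3 (0.0811 and 0.122). Nnat lost it without GFP+ replicates 1 and 2 (adjusted p = 0.202 and 0.261, edgeR) or GFP− replicates 2 and 3 (0.144 and 0.0798). The directions held in each of these fits. With no filter on low counts, Calca and Scg2 at 6 months (adjusted p = 0.0678 each, edgeR), Nnat at 3 months (0.0626) and all 3 genes at 9 months (0.450, 0.0602 and 0.556 for Calca, Scg2 and Nnat) did not pass. DESeq2 gave smaller changes for Scg2 and Nnat, −3.95 and −4.13 as the mean over ages, and −3.04 for Nnat at 3 months.

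Whether the sort difference varied with age was tested as an interaction, and 0 of the 3 genes were called, where 0.158% of the 1900 genes were. The edgeR adjusted p was 1 for Calca, 1 for Scg2 and 0.701 for Nnat. At an unadjusted p under 0.05 the count was 1, Nnat. The percentages of all genes given here are for adjusted p. The share of all genes at an unadjusted p under 0.05 is not reported here, so counts at that threshold have no background. Age within the GFP− fraction gave 0 calls of 3 (1.53% of all genes), with edgeR adjusted p = 0.995, 0.960 and 0.995 for Calca, Scg2 and Nnat and 0 at an unadjusted p under 0.05. Age within the GFP+ fraction also gave 0 of 3 (1.58% of all genes), with 1 at an unadjusted p under 0.05, Nnat (edgeR adjusted p = 0.230). In GFP− cells the summed level of Nnat was 267, 311.8 and 312.6 CPM at 3, 6 and 9 months and that of Scg2 was 223, 217 and 387 CPM. Log2 changes of 9 over 3 months in GFP− cells were 0.19 ± 0.73 for Calca, 0.63 ± 0.58 for Scg2 and −0.07 ± 0.62 for Nnat (SE), each smaller than or close to its error. Pcsk2 had 0, 0 and 4 reads in GFP+ libraries at 3, 6 and 9 months and 10, 29 and 20 in GFP− libraries.

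**Figure D4:**
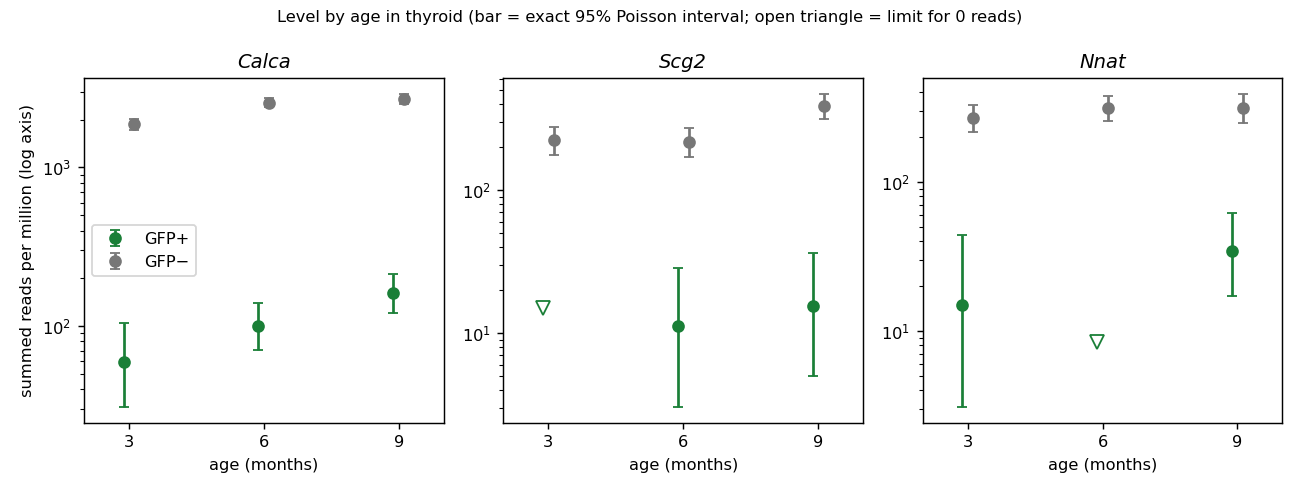
CPM from summed reads of Calca, Scg2 and Nnat at 3, 6 and 9 months in thyroid GFP+ (green) and GFP− (grey) libraries on log axes, with exact 95% Poisson intervals. Open triangles mark the limit of 3 reads for Scg2 at 3 months and Nnat at 6 months, where GFP+ libraries had 0 reads, and the fractions stay apart at each age.

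Salivary gland was compared at 9 months, as a gland that has no C cells. The set was close to empty there: 1 read of Nnat in a GFP+ library, and 1 read of Pcsk2 and 2 of Ret in GFP− libraries. Calca and Scg2 had 0 reads in both salivary fractions. In GFP− cells, Calca summed to 2694 CPM in thyroid and had 0 reads in salivary gland, at least 271-fold higher in thyroid (edgeR adjusted p = 2.07e-07). Nnat was at least 31.4-fold higher (edgeR adjusted p = 0.000112), and Scg2, not tested in this fit, at least 38.9-fold higher on 104 reads in thyroid and 0 in salivary gland. Calca and Nnat, the 2 genes tested, had 0 reads in salivary GFP− libraries and passed the filter on low counts through thyroid. Higher in thyroid was thus the only call open to them. Both were called higher, where 9.86% of 974 genes were, and the median change of all genes was 0.17. With DESeq2 size factors that share was 48.2% and the median 1.60, and with DESeq2 the share was 33.8%. Salivary GFP− replicate 3 held 188657 of the 301336 reads of its group, and without it the bounds fall to 101-fold for Calca, 11.7-fold for Nnat and 14.5-fold for Scg2. In GFP+ cells 0 of the 2 were called, where 14.6% of genes were, although Calca had 52 reads in thyroid and 0 in salivary libraries, at least 4.96-fold higher in thyroid. For Calca the edgeR adjusted p was 0.169, and 0 of the 2 had an unadjusted p under 0.05. DESeq2 called 1, Calca, where it called 57.7% of all genes. The salivary GFP+ group held 92013 reads, so 0 reads allow up to 32.6 CPM. Without its replicate 3, which held 79225 of them, the limit is 234.6 CPM, above the thyroid level of 162 CPM, and no bound remains. The salivary sort called 0 of the 2 genes and 0.0% of all genes by edgeR, 0 by DESeq2, and 0 of the 2 had an unadjusted p under 0.05. With 0 reads of Calca and 1 read of Nnat in all salivary libraries, neither gene could be called there. That outcome was fixed by the reads and says nothing about the sort in this gland. The interaction of the sort with gland called 0 of 2 by edgeR, where 0.0% of genes were called, and 0 by DESeq2, with 1 at an unadjusted p under 0.05 (Nnat, edgeR adjusted p = 0.515). For these gland comparisons too, counts at an unadjusted p have no share of all genes beside them.

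Other genes of the same pathways were read from lists. Of 8 granins and granule proteins, 2 were tested and both were lower in GFP+ cells, Scg2 and Chga. Of all 1900 genes tested, 8.79% were called lower. Chga, the chromogranin A gene, which parathyroid cells also make, had a ratio of summed reads of 0.585 (log2 fold change −1.56, edgeR adjusted p = 0.00907). Chga lost its call without GFP+ replicate 1, 2 or 3 (adjusted p = 0.0510, 0.0603 and 0.0545) or GFP− replicate 2 (0.0816) at 9 months. Scg5, which encodes the PC2 chaperone 7B2, was not tested and had 15 reads in GFP+ and 77 in GFP− libraries (ratio 0.219, 0.117 to 0.385). Among 7 processing genes only Pam, the amidating enzyme gene, was tested, and it did not pass (log2 fold change 0.94, edgeR adjusted p = 0.0780). Cpe, the carboxypeptidase E gene, had 51 reads in GFP+ and 35 in GFP− libraries, and Qpct, the glutaminyl cyclase gene, had 37 in GFP+ and 28 in GFP−.

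Of 10 calcitonin family peptide and receptor genes, 4 were tested and 2 were lower, Calca and Ramp3, where 8.79% of all 1900 genes were. Ramp3, which encodes a receptor partner of the family that endothelial cells make, had 5 reads in GFP+ and 109 in GFP− libraries (log2 fold change −4.49, edgeR adjusted p = 2.03e-09, and −5.32 without GFP+ replicate 4 at 3 months). All 7 endothelial markers were lower in GFP+ cells as well, and they reached 369 CPM in sum in GFP+ (0 to 1921 CPM by library), against 4468 CPM in GFP− (1837 to 8077 CPM), with no marker at 0 in either fraction. Their part in the Ramp3 change was not tested. Adm, the adrenomedullin gene (1.09, edgeR adjusted p = 0.104), and Calcrl, the shared receptor gene (−1.12, adjusted p = 0.125), did not pass. Ramp1, the CGRP receptor partner, was not tested and had 17 reads in GFP+ and 0 in GFP− libraries. Calcr, the calcitonin receptor gene, had 0 reads in both.

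None of the 9 RET ligand and coreceptor genes reached the test. Gfra1 had 26 reads in GFP+ and 9 in GFP− libraries (ratio 3.25, 1.48 to 7.89) and Gfra2 20 in GFP+ and 10 in GFP−. Gdnf, the ligand for RET with GFRA1, had 9 reads in GFP+ and 0 in GFP− libraries. Of 10 neuroendocrine transcription factor genes 0 were tested. Insm1, a zinc finger factor of endocrine cells, had 0 reads in GFP+ and 11 in GFP− libraries. Rest, the repressor of neuronal genes, had 34 in GFP+ and 39 in GFP− libraries.

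Among 20 exocytosis and neuronal genes only Vamp2, a vesicle SNARE gene, was tested, and it did not pass (log2 fold change −0.31, edgeR adjusted p = 0.840). Syt7, a calcium sensor gene of granule release, had 4 reads in GFP+ and 33 in GFP− libraries, and Cplx2, which clamps and primes release, had 2 in GFP+ and 24 in GFP−. Stmn2, a neuronal stathmin gene, had 18 reads in GFP+ and 25 in GFP− libraries. Of 6 amine genes 0 were tested, and Ddc, the decarboxylase gene, had 7 reads in GFP+ and 30 in GFP− libraries. Among 9 other C cell peptide and sensor genes Grp, the gastrin-releasing peptide gene, was tested and did not pass (−1.35, edgeR adjusted p = 0.0653). The galanin gene Gal had 19 reads in GFP+ and 3 in GFP− libraries (ratio 7.13, 2.10 to 37.6), and the neurotensin gene Nts 14 in GFP+ and 0 in GFP−. The untested genes thus include some with fewer GFP+ reads (Insm1, Syt7, Cplx2, Ddc) and some with more (Gal, Nts, Gdnf, Ramp1), all on small counts and without a test.

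Markers of other cell types moved between the same fractions as the C cell genes. Follicular markers were lower in GFP+ cells in 3 of 5 tested, with a sum of 2189 CPM in GFP+ (0 to 4447 CPM by library) against 5593 CPM in GFP− (680 to 9831 CPM), with Slc26a4 at 0 in both. Parathyroid markers were lower in 3 of 3 tested, with a sum of 21336 CPM in GFP+ (2441 to 61950 CPM by library) against 35021 CPM in GFP− (5099 to 69157 CPM), and no marker at 0. Fibroblast markers were higher in 8 of 8 (14763 CPM in GFP+ and 3181 CPM in GFP−) and red cell globins lower in 4 of 4 (1021 CPM in GFP+ and 5621 CPM in GFP−). Of all 1900 genes tested, 8.79% were called lower and 11.4% higher in GFP+ cells as the mean over ages. The part of these cell types in the values of the C cell genes was not tested.

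The genes whose levels over the 8 groups ran most like those of Calca were found by the root mean square difference of centred log2(CPM + 20), with no test, among 1932 genes. Leaving out the 10 genes themselves, the nearest to Calca were the beta-globin genes Hbb-bt (1.06) and Hbb-bs (1.14), which are near-identical copies, and Esm1 (1.22), Igfbp3 (1.30) and Plpp1 (1.41). The nearest to Scg2 were Plpp1 (0.603), Esm1 (0.698), Btnl9 (0.783), Plvap (0.808) and Rsad2 (0.840). Nnat was nearer to Scg2 than any of them, at 0.472, while Calca and Scg2 were 1.21 apart. Because 20 CPM is added to each level, the distance depends on the level of a gene as well as on its fold changes. Calca and Scg2 had close GFP+ over GFP− ratios in thyroid, 0.0485 and 0.0385, at very different levels. The distances share all 8 groups and libraries, and 3 of the 5 genes stayed among the nearest to Calca with a pseudocount of 5 CPM and 4 with 100 CPM, while for Scg2 the numbers were 3 and 2.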

How the data were processed

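Gene counts were used as the authors deposited them, 1 table per library. Libraries were 3′ mRNA libraries from DNase-treated RNA, per the labels' protocols. Per the submitters' processing notes, bcl2fastq was used and the build was mm9. The aligner, counter and strand setting are not given in the sources used here. The 5 summary rows were left out. Between 13.3 and 85.8% of reads per library lay outside genes, and ribosomal RNA rows (25.1 to 63.8% of reads in genes) were kept. Symbols came from GENCODE vM21 names (47224 identifiers matched, 419 did not). No pair of libraries within a group held identical counts.

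Tests used edgeR 4.0.16 in R 4.3.3 (TMM, filterByExpr with minimum count 10 and total 15, robust quasi-likelihood fits, Benjamini-Hochberg adjustment over all genes tested, threshold 0.05). All 22 thyroid libraries entered 1 fit of 6 groups (1900 genes), and the 12 libraries at 9 months another of 4 groups (974 genes). Standard errors are the fold change over the root of F. Alternatives were DESeq2 1.42.0, its size factors, no filter or at least 20 counts in 50% of libraries, other sample sets, a replicate block, no ribosomal rows, no libraries under 10000 reads, and each library left out (for Chga, Ramp3, ratios of summed reads and bounds between glands, chosen after seeing the data). Intervals are exact at 95%, and where a group had 0 reads a limit of 3 reads over the group was used. Scripts were tested on simulated data.

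The 10 genes, the pathway lists and the naming rules were chosen with earlier results of these data known. The rule names all 10 genes, up to 6 per list (called genes, then the most abundant), the 5 nearest to Calca and to Scg2, and up to 3 markers per cell type. Replicate numbers were checked for pairing by correlating residuals between fractions of the same number. Different numbers were not correlated for comparison, so the check cannot settle whether the numbers pair the fractions. Some listed genes are not reported here.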

Additional observations from a re-analysis of the deposited data

Results flagged for a closer look

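Of 26 groups of 4 libraries with reads of a gene, 10 had a library far from the other 3. For continuous values chance marks about 1 in 20 groups, a rate that does not hold for low counts: a gene with reads in 1 of 4 libraries is always marked, which was so in 7 of the 10. Calca stood at 1972 CPM in GFP+ replicate 4 at 6 months on 1 read, against 35.3 to 128 CPM in the other 3 libraries. Calca stood at 619 CPM in GFP− replicate 2 at 6 months on 3 reads, against 2554 to 2648 CPM in the others. Nnat stood at 640.2 CPM in GFP+ replicate 1 at 3 months on 1 read, against at most 11.4 CPM.

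In the other cases the remaining 3 libraries were at 0. In GFP+ replicate 4 at 3 months, by far the deepest of its group, Ret had 7 reads (40.01 CPM) and Scg3 had 4 (22.9 CPM). At 6 months in GFP+ libraries, Chgb had 1 read in replicate 1 (11.8 CPM), Pcsk1 had 1 in replicate 2 (13.1 CPM) and Gfra4 had 3 in replicate 3 (15.3 CPM). In GFP− libraries, Pcsk1 had 3 reads in replicate 1 at 3 months (32.2 CPM) and Ret had 3 in replicate 3 at 6 months (14.3 CPM).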

How the results depend on the processing

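In the thyroid sort, no fitted change of Calca, Scg2 or Nnat was reversed under any alternative run. The same held for Calca and Nnat between glands in GFP− cells. Changes with age, interactions and the other comparisons are not covered by this. Ratios of summed reads within an age did turn when 1 library was left out: Ret at 9 months (1.88, and 0.953 without GFP− replicate 2), Scg3 at 6 months (0.850, and 1.19 without GFP+ replicate 3), Gfra4 at 6 months (0.431, and 1.26 without GFP− replicate 3) and Chgb at 9 months (0.836, and 1.78 without GFP+ replicate 2). The number of genes of the set called moved mainly with the filter on low counts, which sets how many are tested. For the mean sort, 3 became 5 with no filter and 1 with the stricter filter, which tests Calca alone. Over all genes, 178 of 16525 were called lower with no filter and 35 of 321 with the stricter filter. The stricter filter also gave 1 at 3, 6 and 9 months, where 22 of 321 genes were called lower at 3 months and 4 at 6 months. It gave 0 for thyroid against salivary GFP− cells, where it tested 0 genes of the set. With no filter the counts were 1 at 6 months, where 3 of 16525 genes were called lower, and 0 at 9 months. DESeq2 and DESeq2 size factors each called 1 gene, Calca, between glands in GFP+ cells, where they called 57.7% and 72.7% of all genes. Leaving out 1 library gave 1 to 3 calls at 9 months. Between glands in GFP− cells it gave 1 to 3, the 1 without salivary GFP− replicate 3, where Nnat had adjusted p = 0.0683 (edgeR). For the counts under other filters at 9 months and with 1 library left out, the share of all genes called is not reported here. Those counts therefore have no background beside them.

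Residual correlations between fractions of the same replicate number were above 0.1 in 3 of 11 thyroid pairs (range −0.09 to 0.35). They were above 0.1 in 2 of 3 salivary pairs (range 0.08 to 0.19). Without a comparison between different numbers, this does not settle whether the numbers pair the fractions. The replicate block left 1 call at 9 months, with Calca at adjusted p = 0.134 and Nnat at 0.103 (edgeR), and gave 3 calls in the mean sort and at 3 and 6 months. Of all 1900 genes, the block called 95 lower in the mean sort, 36 at 3 months and 8 at 6 months. Its share at 9 months is not reported here. Nnat at 9 months was at adjusted p = 0.0698 with DESeq2. DESeq2 tests over 3 ages at once were not run. Without ribosomal rows levels in CPM rise, for example to 2701 CPM in place of 1682 CPM for mean Calca in GFP− cells at 3 months. Depth limits the set: 7 of the 10 genes were too low to test, and changes with age of less than their error were not detectable.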
